A study of Mus musculus with 8 samples.

Results

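Rab GTPases, the small proteins that mark and steer the membranes of the cell, were followed through splenic dendritic cells by taking each gene on the array whose only symbol was Rab with a number and at most 1 letter. The array carried 59 such genes on 132 of its 45101 probe sets, a probe set being the group of short probes that reads 1 transcript. Of these, 39 genes reached a log2 value of 5 or more on at least 2 of the 8 arrays and were analysed among 8763 genes in all, and the other 20 were given by their level alone. Dendritic cells were sorted as CD8α+ or CD8α- from spleen. The mice were C57BL/6 females, 10 weeks old per the sample labels and untreated, and were either wild type or RAG2-/-. Each of the 4 groups (CD8α- and CD8α+ of each genotype) had 2 arrays of total RNA. Values are log2, and where the 4 arrays of a genotype are listed together the CD8α- arrays come first. RAG2-/- mice cannot rearrange antigen receptor genes and so lack T and B lymphocytes, while their NK and myeloid cells remain, and the study was set up to ask how T and B cells influence antigen presentation by conventional dendritic cells. Whether the 2 arrays of a group stand for different mice is not in the labels, so each p-value is set against array-to-array spread that may be technical.

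A Rab is loaded with GTP by an exchange factor (GEF), recruits effectors such as tethers and motors, is switched off by a GTPase-activating protein (GAP), and is drawn off the membrane by GDI. Each Rab works on its own membranes. Rab1 and Rab2 act between the endoplasmic reticulum and the Golgi, Rab5 on early endosomes, Rab11 on recycling endosomes, Rab7 on late endosomes and Rab27 on secretory granules. CD8α+ dendritic cells are known for cross-presentation, the loading of peptides from engulfed antigen on MHC class I, and several Rabs have been linked to that route.

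The sorting gate was visible on the arrays. Cd8a stood between 11.73 and 12.51 on the 4 CD8α+ arrays and between 5.80 and 7.70 on the CD8α- arrays, while Cd4 stood between 7.83 and 11.23 on the CD8α- arrays and between 2.76 and 4.15 on the others. Rag1 and Rag2 were below 5 on all 8 arrays and did not check the genotype. The mean of 6 B cell markers was 7.15 to 8.09 on wild type arrays and 5.55 to 5.77 on RAG2-/- arrays. Cd79a and Pax5 among them were below 5 on all arrays. The log2 of their summed level was 13.26 to 13.86 against 12.15 to 12.50, and Ighm was still at 12.06 to 12.40 on RAG2-/- arrays. Markers of neutrophils (8 of 10 on the array) had a mean of 2.62 to 3.17 on 6 arrays but 8.11 in RAG2-/- CD8α- replicate 2 and 6.46 in RAG2-/- CD8α+ replicate 1. The log2 of their summed level was 5.80 to 6.63 on the 6 arrays, and 12.96 and 11.54 on those 2, with Elane and Mmp8 below 5 on all arrays. Markers of macrophages (9 of 9) had a mean of 8.23 to 9.88 on RAG2-/- arrays and 6.34 to 7.06 on wild type arrays, and a log2 summed level of 12.88 to 14.13 against 12.15 to 12.86. Of these, Vcam1 was not higher in RAG2-/- CD8α+ cells (11.58 and 11.35, against 11.64 and 12.36 in wild type). For NK cells, 4 of 5 markers were on the array, with Ncr1 and Prf1 below 5 on all arrays. Their log2 summed level was 7.04 to 9.27 on RAG2-/- and 5.10 to 5.57 on wild type arrays. Klra8 was at 6.84 to 9.06 against 3.81 to 4.42. Eomes was at 3.43 to 4.03 on wild type arrays, 5.63 in RAG2-/- CD8α- replicate 2 and 2.86 to 3.05 on the other RAG2-/- arrays. The mean of 5 markers of plasmacytoid cells moved with the subset, at 5.21 to 5.76 on CD8α- and 6.37 to 7.75 on CD8α+ arrays. Among them Ly6d was below 5 on all arrays. Tcf4 was not higher in CD8α+ cells (9.23 to 10.20, against 9.76 to 10.43). Siglech reached 5 in RAG2-/- CD8α+ replicate 2 alone (5.36). The part of these cells in the Rab results was not tested, but each Rab difference is given without the 2 arrays with neutrophil transcripts where its call changed. That refit leaves 1 array in each RAG2-/- group, so it holds no spread between RAG2-/- arrays. The lowest value was 2.23 on all RAG2-/- arrays and 1.16 or 1.17 on wild type arrays, and the processing notes name affy for the wild type arrays alone, so a genotype difference cannot be told apart from a difference in processing. Differences between subsets lie within a genotype and do not carry that difference.

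Of the Rab genes that were higher in CD8α+ cells of both genotypes, Rab32, Rab39, Rab33b and Rab11a had an entry in the RefSeq promoter table (build GRCm38.p6). The 250 bases before each start site are shown, 5′ to 3′ in the direction of the gene, because these genes move together between the subsets. Capitals mark matches on either strand to GAGGAAGT, a sequence of the type bound by the myeloid factor PU.1, or to GGGCGG, the GC box. The sequences lie at chr10:10558208-10558457 (minus strand, Rab32), chr9:53706233-53706482 (minus, Rab39), chr3:51483716-51483965 (plus, Rab33b) and chr9:64737757-64738006 (minus, Rab11a).
Rab32: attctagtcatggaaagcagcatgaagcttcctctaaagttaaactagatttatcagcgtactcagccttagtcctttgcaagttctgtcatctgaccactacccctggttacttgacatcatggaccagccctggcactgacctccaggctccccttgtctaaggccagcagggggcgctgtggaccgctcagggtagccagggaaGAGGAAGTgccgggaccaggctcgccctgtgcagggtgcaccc
Rab39: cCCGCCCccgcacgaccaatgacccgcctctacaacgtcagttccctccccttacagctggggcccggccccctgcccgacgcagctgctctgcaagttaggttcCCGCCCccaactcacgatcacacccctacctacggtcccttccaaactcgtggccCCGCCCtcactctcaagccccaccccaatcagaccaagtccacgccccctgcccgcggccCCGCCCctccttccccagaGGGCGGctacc
Rab33b: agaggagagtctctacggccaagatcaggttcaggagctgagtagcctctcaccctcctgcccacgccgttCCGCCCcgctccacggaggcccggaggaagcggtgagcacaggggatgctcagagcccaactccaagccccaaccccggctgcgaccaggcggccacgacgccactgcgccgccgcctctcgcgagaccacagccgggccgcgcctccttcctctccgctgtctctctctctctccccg
Rab11a: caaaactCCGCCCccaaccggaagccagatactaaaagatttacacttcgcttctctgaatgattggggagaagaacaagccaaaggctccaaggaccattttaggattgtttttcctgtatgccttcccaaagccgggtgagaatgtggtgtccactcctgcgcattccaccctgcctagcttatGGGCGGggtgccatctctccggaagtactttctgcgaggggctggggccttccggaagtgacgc

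The Rab32 sequence held 1 match to GAGGAAGT, which begins 43 bases before the start, and no GC box. Rab39 held 5 GC boxes, Rab33b 1 and Rab11a 2, with none of the first motif. Of 32851 RefSeq promoter windows of this length, 2.44% held GAGGAAGT, 32.7% held GGGCGG and 6.02% held the E-box CACGTG. Over all 39 promoter windows of the 33 analysed Rab genes with an entry, the counts were 2 (5.13%), 27 (69.2%) and 3 (7.69%). These Rab genes passed the expression filter, while the RefSeq windows were not limited to such genes, so the shares are of unlike sets. No motif of the 3 was shared by all 4 printed windows. The windows had a GC content of 55.6% (Rab32), 68.8% (Rab39), 69.2% (Rab33b) and 53.6% (Rab11a), beside a median of 52.4% over all windows. Matches describe the letters and not the binding of a factor, and no printed match overlaps another.

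**Figure D1:**
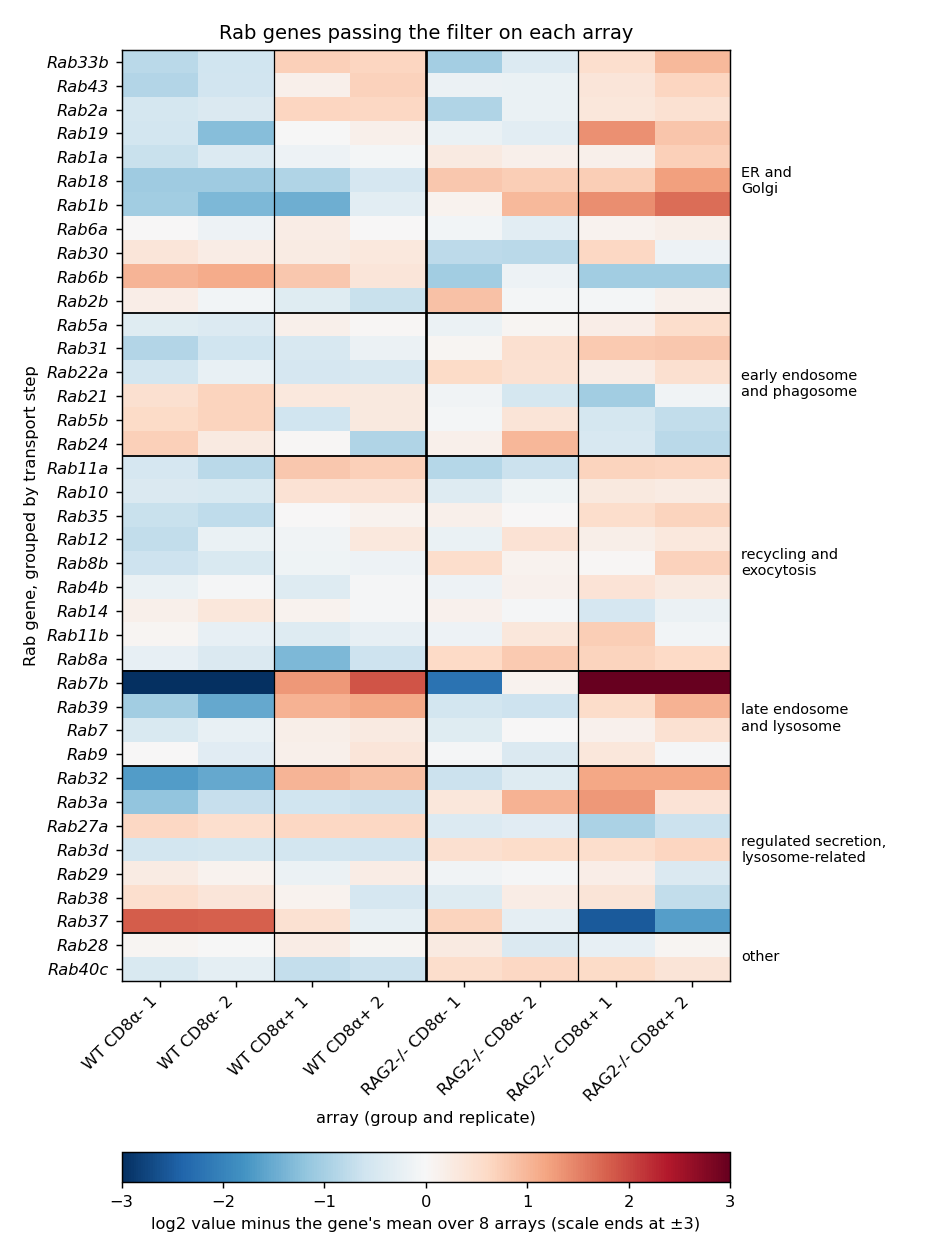
Heat map of the 39 Rab genes that passed the filter (rows, grouped by transport step) on each of the 8 arrays (columns, by group and replicate). Colour is the log2 value minus the mean of the gene over the 8 arrays, with the scale ending at ±3, and Rab7b goes beyond both ends of the scale.

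In wild type mice, 9 Rab genes were higher in CD8α+ cells (Rab7b, Rab32, Rab39, Rab11a, Rab33b, Rab43, Rab2a, Rab10 and Rab35) and 1, Rab37, was lower. That is 25.6% of the 39, beside 17.1% of all genes called (limma fitted over all genes, Benjamini-Hochberg adjusted p under 0.05). By direction, 23.1% of Rab genes were higher beside 9.23% of all genes, and 2.56% were lower beside 7.87%. The median Rab difference was 0.31 on the log2 scale, and that of all genes 0.01. In RAG2-/- mice, 8 Rab genes were higher in CD8α+ cells and 1 was lower, 23.1% beside 21.8% of all genes, and so near the background. By direction these were 20.5% beside 11.1% higher and 2.56% beside 10.7% lower, with a Rab median of 0.22 and an all-gene median of 0.02. Rab7b, Rab32, Rab39, Rab11a, Rab33b and Rab2a were higher in both genotypes, where 6.92% of all genes were, and Rab37 was lower in both, where 6.28% were. In bulk RNA of a sorted pool, a lower level in all cells and fewer cells that express a gene cannot be told apart.

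The subset differences of the 39 Rab genes in the 2 genotypes, which come from separate arrays, had a Pearson correlation of 0.93 and a Spearman correlation of 0.87. Without Rab7b they were 0.87 and 0.86. Over all 8763 genes they were 0.87 and 0.76, and genes are not independent replicates. The sign was the same for 33 of 39 Rab genes (84.6%) and for 77.5% of all genes.

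**Figure D2:**
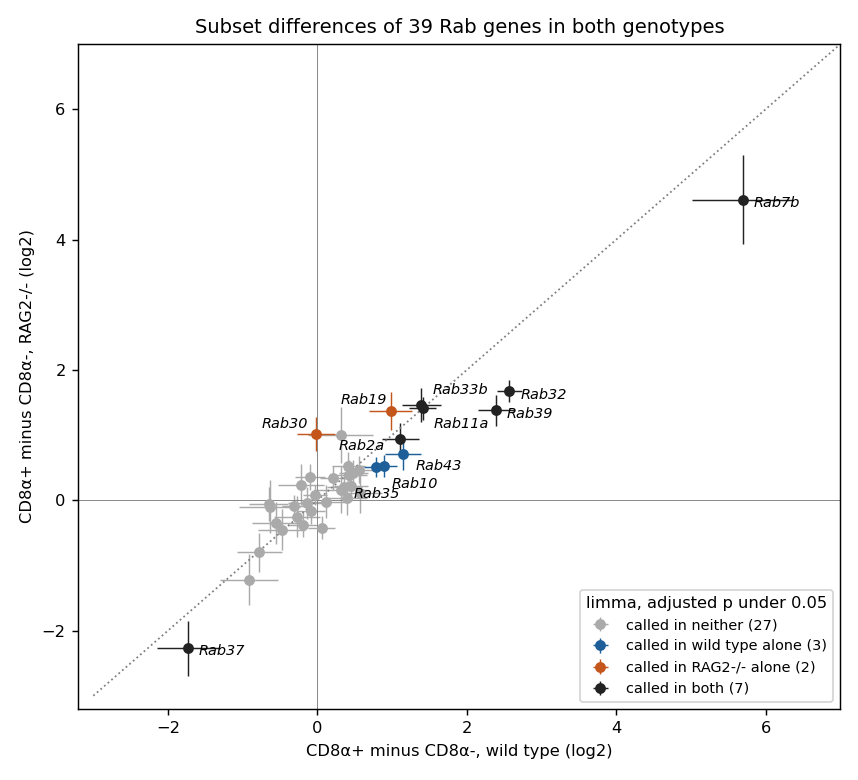
Difference of CD8α+ minus CD8α- cells in wild type (horizontal, log2) and RAG2-/- (vertical, log2) for 39 Rab genes, with bars of 1 standard error from limma and a dotted line of equal differences. Rab7b lies far up the line at 5.69 and 4.61, Rab37 alone of the called genes lies below 0 in both, and 27 genes were called in neither genotype.

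The late endosomal and lysosomal Rabs held the largest difference of the family. Rab7b, which directs traffic from late endosomes to the trans-Golgi network and dampens Toll-like receptor signalling, was at 5.44 and 6.25 in wild type CD8α- cells and 11.24 and 11.84 in CD8α+ cells. It was at 7.74 and 10.04 in RAG2-/- CD8α- cells and 13.47 and 13.55 in CD8α+ cells. Both CD8α+ groups lay above both CD8α- groups, and the RAG2-/- CD8α- arrays lay apart from each other. The difference was 5.69 (SE 0.68), or 51.7-fold, in wild type (limma, adjusted p = 0.00165) and 4.61 (SE 0.68), or 24.5-fold, in RAG2-/- (adjusted p = 0.00365). A second probe set of Rab7b differed by 5.93 and 3.81. The higher RAG2-/- CD8α- array, replicate 2, is the one with neutrophil transcripts, and its mean over 9 markers of CD8α+ dendritic cells was 9.05, against 8.10 in replicate 1. Without the 2 arrays with neutrophil transcripts the RAG2-/- difference was 5.80, between the 1 array left in each subset.

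Rab39, found on late endosomes and phagosomes and linked to cross-presentation, stood at 7.10 and 6.61 in wild type CD8α- cells and 9.20 and 9.29 in CD8α+ cells. The RAG2-/- arrays stood at 7.61 and 7.52 and at 8.70 and 9.19. No CD8α- array of either genotype reached a CD8α+ array. The difference was 2.39 (SE 0.24), or 5.24-fold, in wild type (limma, adjusted p = 0.000754). In RAG2-/- it was 1.38 (SE 0.24), or 2.6-fold (adjusted p = 0.00742). The general late endosome gene Rab7, which recruits the machinery for fusion with lysosomes, was at 11.44 and 11.68 in wild type CD8α- cells, 12.07 and 12.17 in CD8α+ cells, 11.54 and 11.90 in RAG2-/- CD8α- cells and 12.03 and 12.35 in CD8α+ cells. The subsets did not overlap, but the differences of 0.56 and 0.47 did not pass the test (limma, adjusted p = 0.127 and 0.16). Rab9, which works in retrograde transport from late endosomes, differed by 0.42 and 0.38 and did not pass either.

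**Figure D3:**
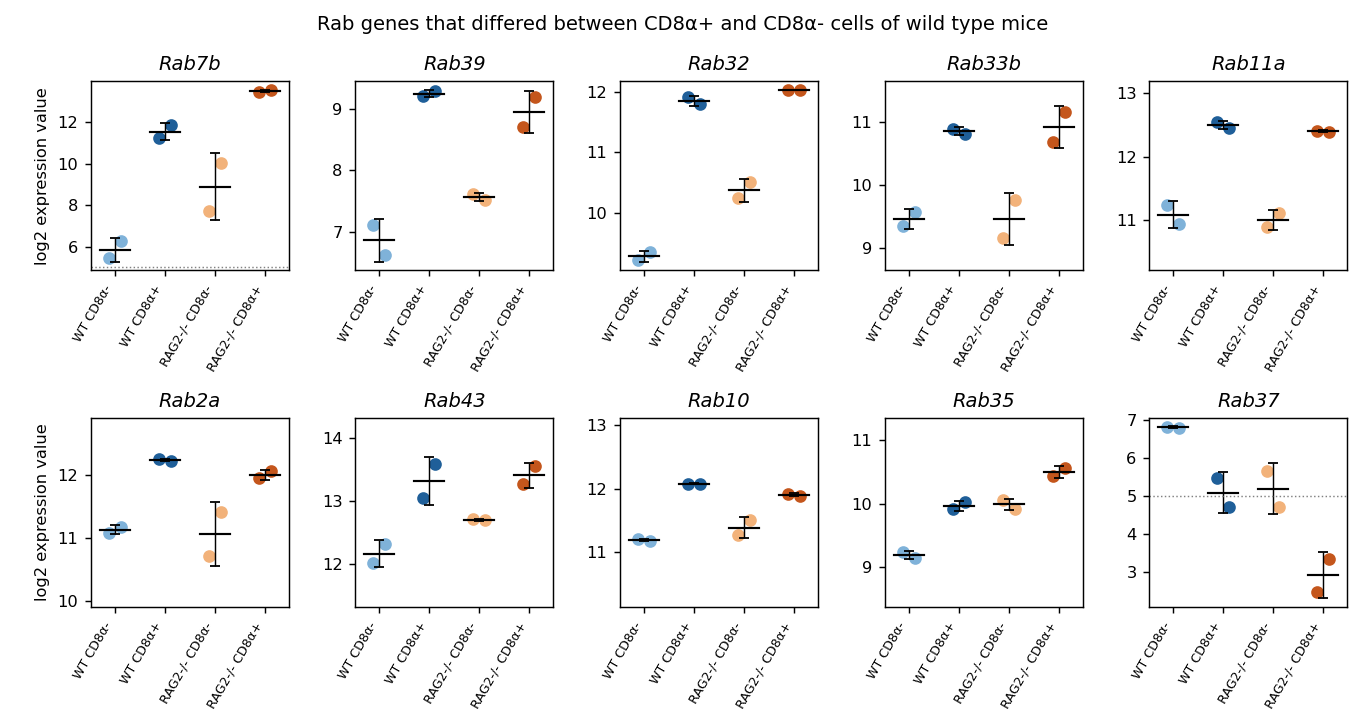
Log2 expression values of the 10 Rab genes called between the subsets in wild type, on each array (points), with the mean of the 2 arrays of a group (line) and 1 SD (bars), and the filter level of 5 as a dotted line where the panel reaches it. The vertical axes differ in range: Rab7b spans 5.44 to 13.55 and Rab10 11.17 to 12.08.

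Of 7 analysed Rabs of secretory granules and lysosome-related organelles, 1 was higher and 1 lower in CD8α+ cells of each genotype, 28.6% beside 17.1% and 21.8% of all genes. Rab32, which serves melanosomes, mitochondria and the killing of engulfed bacteria, stood at 9.22 and 9.35 in wild type CD8α- cells and 11.91 and 11.80 in CD8α+ cells. The RAG2-/- arrays stood at 10.24 and 10.51 and at 12.04 on both CD8α+ arrays. The CD8α+ arrays of both genotypes lay close together above all CD8α- arrays, and the RAG2-/- CD8α- arrays lay between. The difference was 2.57 (SE 0.17), or 5.93-fold, in wild type (limma, adjusted p = 0.000172) and 1.67 (SE 0.17), or 3.17-fold, in RAG2-/- (adjusted p = 0.000834).

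Rab37, a Rab of secretory granules, went the other way. It was at 6.82 and 6.79 in wild type CD8α- cells, 5.46 and 4.70 in CD8α+ cells, 5.66 and 4.72 in RAG2-/- CD8α- cells and 2.49 and 3.35 in CD8α+ cells. In wild type 1 of the CD8α+ arrays was above the filter level of 5 and 1 below, and in RAG2-/- both were below. In wild type the difference was -1.73 (SE 0.42, limma, adjusted p = 0.031). In RAG2-/- it was -2.27 (SE 0.42, adjusted p = 0.00969), which is at least 1.14-fold lower when the CD8α+ arrays, all below 5, are taken at 5, and with values below 5 set to 5 it was -0.33 (adjusted p = 0.415). With RAG2-/- CD8α+ replicate 1 left out it missed the threshold (-1.84, adjusted p = 0.0601), as it did with CD8α- replicate 1 of that genotype left out (-1.81, adjusted p = 0.0508). Rab38, the close relative of Rab32, did not pass in either genotype (-0.64 and -0.10), and its 2 probe sets differed in sign. Rab27a, which docks secretory lysosomes at the plasma membrane, was at 7.79, 7.68, 7.80 and 7.80 on the wild type arrays and 6.76, 6.84, 6.23 and 6.54 on the RAG2-/- arrays. The subsets differed by 0.06 in wild type and by -0.42 (SE 0.18) in RAG2-/-, without overlap, and neither passed (limma, adjusted p = 0.878 and 0.14, the second with an unadjusted p = 0.048).

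Of 11 analysed Rabs of the endoplasmic reticulum and Golgi, 3 were higher in CD8α+ cells in wild type (Rab33b, Rab2a and Rab43), 4 in RAG2-/- (Rab33b, Rab2a, Rab19 and Rab30) and 0 were lower in either. The shares higher were 27.3% and 36.4%, beside 9.23% and 11.1% of all genes. Rab33b, a Golgi Rab that also binds the autophagy protein Atg16l1, was at 9.36 and 9.58 in wild type CD8α- cells and 10.90 and 10.82 in CD8α+ cells. The RAG2-/- values were 9.17 and 9.76 in CD8α- cells and 10.69 and 11.16. The genotypes overlapped within each subset and the subsets did not overlap. The difference was 1.39 (SE 0.26), or 2.62-fold, in wild type (limma, adjusted p = 0.0112) and 1.46 (SE 0.26), or 2.75-fold, in RAG2-/- (adjusted p = 0.00817).

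Rab2a, which tethers vesicles at the Golgi and supports fusion with lysosomes, was at 11.08 and 11.18 in wild type CD8α- cells, 12.25 and 12.23 in CD8α+ cells, 10.71 and 11.42 in RAG2-/- CD8α- cells and 11.95 and 12.06 in CD8α+ cells. The differences were 1.11 (SE 0.25, limma, adjusted p = 0.0217) and 0.94 (SE 0.25, adjusted p = 0.035). They rest on the brightest of 7 probe sets. The next by level differed by 0.17 and -0.07, and the mean over the probe sets of Rab2a that passed differed by 0.34 in each genotype (adjusted p = 0.405 and 0.356).

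Rab43, a Golgi Rab that has been reported as needed for cross-presentation by CD8α+ dendritic cells, was at 12.01 and 12.32 in wild type CD8α- cells and 13.05 and 13.58 in CD8α+ cells. In RAG2-/- cells it was at 12.71 and 12.69 and at 13.27 and 13.55. The CD8α- arrays of RAG2-/- mice lay above those of wild type, and all CD8α+ arrays lay above both. The wild type difference was 1.14 (SE 0.24, limma, adjusted p = 0.0162), and the RAG2-/- difference of 0.71 missed the threshold (adjusted p = 0.0737) but passed it after quantile normalization (0.78, adjusted p = 0.045).

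Rab19 and Rab30, both found at the Golgi, were called in RAG2-/- alone. Rab19 was at 7.72 and 6.98 in wild type CD8α- cells, 8.25 and 8.41 in CD8α+ cells, 8.07 and 7.95 in RAG2-/- CD8α- cells and 9.65 and 9.11 in CD8α+ cells. The CD8α+ arrays were the higher in each genotype, with 1.37 (SE 0.29, limma, adjusted p = 0.0167) in RAG2-/- and 0.98 (SE 0.29, adjusted p = 0.0628) in wild type. Without the 2 arrays with neutrophil transcripts the RAG2-/- difference was 1.04, between the 1 array left in each subset, and not called.

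Rab30 was at 10.38, 10.26, 10.27 and 10.34 on the wild type arrays, 9.25 and 9.21 in RAG2-/- CD8α- cells and 10.64 and 9.87 in CD8α+ cells. Only the RAG2-/- CD8α- arrays stood apart from the rest. The RAG2-/- difference was 1.02 (SE 0.26, limma, adjusted p = 0.0313), and a second probe set differed by -0.30. Without the 2 arrays with neutrophil transcripts it was 0.62, between the 1 RAG2-/- array left in each subset, and not called. Rab6a, the main Rab of Golgi exit and retrograde transport, was at 10.10, 9.93, 10.32 and 10.11 on the wild type arrays and 10.01, 9.78, 10.20 and 10.27 on the RAG2-/- arrays. It differed by 0.21 and 0.34 on its brightest probe set and did not pass (adjusted p = 0.521 and 0.233). Its other 2 probe sets differed by 0.70 or more in each genotype, and the mean over its probe sets passed in both (0.60, adjusted p = 0.0436 and 0.0378).

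Of 9 analysed Rabs of recycling and exocytosis, 3 were higher in wild type CD8α+ cells (Rab11a, Rab10 and Rab35), 1 in RAG2-/- (Rab11a), and 0 were lower. The shares higher were 33.3% and 11.1%, beside 9.23% and 11.1% of all genes, so the RAG2-/- count is at the background. Rab11a, the defining Rab of the recycling endosome and of a store of MHC class I in dendritic cells, was at 11.23 and 10.93 in wild type CD8α- cells and 12.54 and 12.45 in CD8α+ cells. In RAG2-/- cells it was at 10.88 and 11.10 and at 12.41 and 12.39. The 2 genotypes overlapped in CD8α- cells and lay within a narrow range in CD8α+ cells. The difference was 1.41 (SE 0.18), or 2.66-fold, in each genotype (limma, adjusted p = 0.00229 and 0.00219), and a second probe set differed by 1.19 and 1.31. Its paralogue Rab11b differed by -0.22 and 0.24 and did not pass.

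Rab10, which carries cargo such as Toll-like receptor 4 to the plasma membrane, was at 11.20 and 11.17 in wild type CD8α- cells, 12.08 and 12.07 in CD8α+ cells, 11.26 and 11.50 in RAG2-/- CD8α- cells and 11.92 and 11.89 in CD8α+ cells. All 3 of its probe sets were higher in CD8α+ cells in both genotypes. The brightest differed by 0.89 (SE 0.17, limma, adjusted p = 0.0109) in wild type and 0.52 (adjusted p = 0.0649) in RAG2-/-, where the mean over the probe sets passed (1.03, adjusted p = 0.0163).

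Rab35, a Rab of fast recycling from the plasma membrane, was at 9.23 and 9.14 in wild type CD8α- cells, 9.91 and 10.02 in CD8α+ cells, 10.05 and 9.92 in RAG2-/- CD8α- cells and 10.43 and 10.57 in CD8α+ cells. Its levels formed 3 steps, with wild type CD8α+ and RAG2-/- CD8α- cells overlapping in the middle. The subset difference was 0.78 (SE 0.16, limma, adjusted p = 0.0178) in wild type and 0.51 (adjusted p = 0.0688) in RAG2-/-. Rab14, which sorts between the Golgi and endosomes and has been linked to cross-presentation, was at 13.38, 13.56, 13.34 and 13.20 on the wild type arrays and at 13.36, 13.20, 12.73 and 13.06 on the RAG2-/- arrays, and did not pass (-0.20 and -0.38, adjusted p = 0.562 and 0.205).

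No Rab of the early endosome and phagosome passed between the subsets, among 6 analysed, where 17.1% (wild type) and 21.8% (RAG2-/-) of all genes did, and 3 had an unadjusted p under 0.05 in each genotype (limma). Rab5a, the Rab that fuses incoming vesicles with early endosomes, differed by 0.48 and 0.42 (limma, adjusted p = 0.138 and 0.161). Rab5b was at 7.64 and 7.72 in wild type CD8α- cells, 6.47 and 7.34 in CD8α+ cells, 7.01 and 7.44 in RAG2-/- CD8α- cells and 6.52 and 6.33 in CD8α+ cells. The subsets did not overlap within a genotype, and the differences of -0.78 and -0.80 did not pass (adjusted p = 0.137 and 0.11), although the first was -1.22 and passed without wild type CD8α+ replicate 2 (adjusted p = 0.0423) and the second passed without either wild type CD8α+ replicate (adjusted p = 0.0498 each). Rab24, linked to autophagy, differed by -0.92 and -1.22 and did not pass (adjusted p = 0.166 and 0.0664).

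A list of 14 Rabs linked in the literature to cross-presentation was chosen with earlier results of these data known, so its direction is not independent evidence. It had 11 analysed members, of which 6 were higher in wild type CD8α+ cells (Rab10, Rab11a, Rab32, Rab35, Rab39 and Rab43), 0 were lower, and Rab5b, Rab6a, Rab14, Rab22a and Rab27a did not pass. In RAG2-/- cells 3 were higher (Rab11a, Rab32 and Rab39) and 0 lower. The shares called higher were 54.5% and 27.3%, beside 9.23% and 11.1% of all genes, and 17.1% and 21.8% of all genes were called in either direction. The median difference of the 11 was 0.78 in wild type and 0.51 in RAG2-/-, beside 0.01 and 0.02 over all genes. Rab3b, Rab3c and Rab34 of that list were below 5 on every array.

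Leaving out 1 array at a time split the subset calls into those that always passed and the rest. A refit has fewer arrays to measure the spread, so a missed threshold need not mean a smaller difference. Over the wild type refits Rab2a ran from 1.05 to 1.16 and Rab43 from 0.88 to 1.41. The RAG2-/- difference of Rab2a stayed at 0.94 without any 1 wild type array, yet was not called. Rab7b, Rab32, Rab39 and Rab11a passed in both genotypes whichever of the 8 arrays was left out, and so did Rab33b in RAG2-/- cells. In wild type, Rab10 and Rab43 each missed the threshold in 3 refits. With CD8α- replicate 1 left out they were at 0.90 and 0.99 (limma, adjusted p = 0.0633 and 0.114), with CD8α- replicate 2 left out at 0.87 and 1.30 (0.0661 and 0.0536), and with CD8α+ replicate 2 left out at 0.89 and 0.88 (0.0549 and 0.086). Rab2a, Rab33b, Rab35 and Rab37 missed it without any 1 of the 4 wild type arrays, with an adjusted p of up to 0.129, 0.0873, 0.0984 and 0.183. In RAG2-/- cells, Rab19 missed it when CD8α+ replicate 1 (1.10, adjusted p = 0.0931) or either CD8α- array (1.43 and 1.31, adjusted p = 0.0607 and 0.0603) was left out. Rab2a and Rab30 each passed in 1 of the 8 refits, Rab2a without RAG2-/- CD8α- replicate 2 (1.30) and Rab30 without RAG2-/- CD8α+ replicate 2 (1.40). A fit of the RAG2-/- groups alone called Rab11a and Rab32 (limma, adjusted p = 0.0291 and 0.0254), with Rab7b at 0.0649, Rab39 at 0.0517 and Rab33b at 0.0795, whereas all 10 wild type calls passed in a fit of the wild type groups alone.

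**Figure D4:**
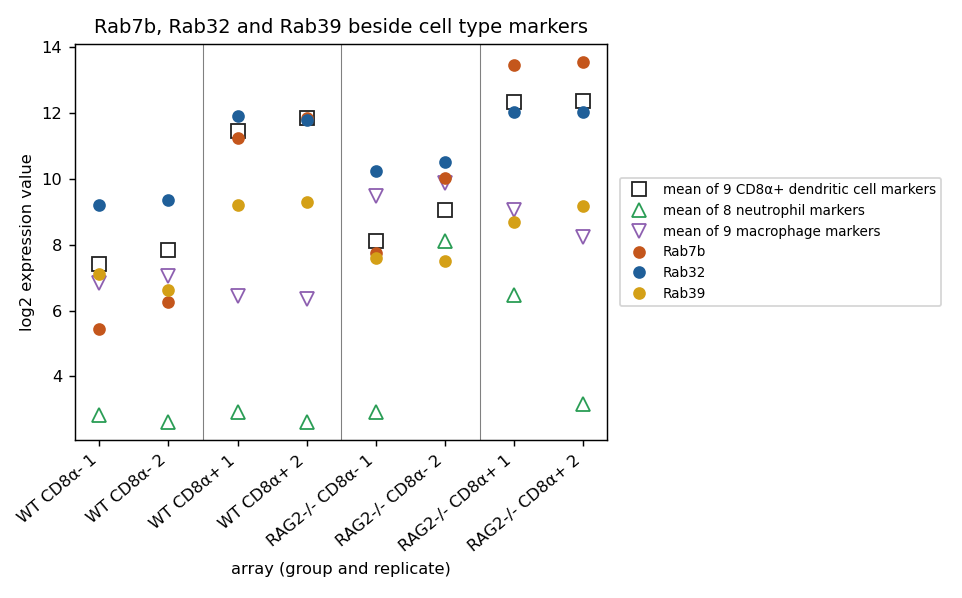
Log2 expression values of Rab7b, Rab32 and Rab39 (filled points) and the mean log2 value of 3 cell type marker lists (open symbols) on each array. Neutrophil markers stand at 8.11 and 6.46 on 2 RAG2-/- arrays, and the mean of the macrophage markers is higher on all RAG2-/- arrays. The 3 Rab genes, like the CD8α+ markers, are higher on the CD8α+ arrays.

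Between the genotypes, Rab genes were called about as often as genes in general. In CD8α- cells 13 Rab genes were higher in RAG2-/- and 4 lower, 43.6% beside 40.5% of all genes (23.4% higher and 17.1% lower), with a Rab median of 0.20 and an all-gene median of 0.14. In CD8α+ cells 10 were higher and 3 lower, 33.3% beside 36.9% of all genes (20.8% higher and 16.1% lower), with medians of 0.10 and 0.09. Higher in both subsets were Rab18, Rab1b, Rab22a, Rab31, Rab35, Rab3a, Rab3d, Rab40c and Rab8a, and lower in both were Rab27a, Rab37 and Rab6b. Rab3d and Rab6b passed the filter through 1 genotype alone and so had to differ. Without them 12 of 37 Rab genes were higher and 3 lower in CD8α- cells (40.5%), and 9 and 2 in CD8α+ cells (29.7%). The shares of all genes were not cut in this way and still hold such genes. The direction counts depend on the scaling. Centring each array on the median of all its probe sets moved the all-gene median up by 0.66 and 0.67 and gave 25 higher and 1 lower Rab genes in CD8α- cells and 23 and 3 in CD8α+ cells, while 54% and 52.4% of all genes were then higher and 6.19% and 5.43% lower. Quantile normalization gave 12 higher and 5 lower Rab genes in CD8α- cells, where 19.7% and 19.8% of all genes were so called. In CD8α+ cells it gave 8 and 4, where 20.1% and 17.1% of all genes were. The summed levels of the macrophage and NK cell markers, higher on the RAG2-/- arrays, move with this comparison, the second mainly through Klra8. Their part in it was not tested.

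**Figure D5:**
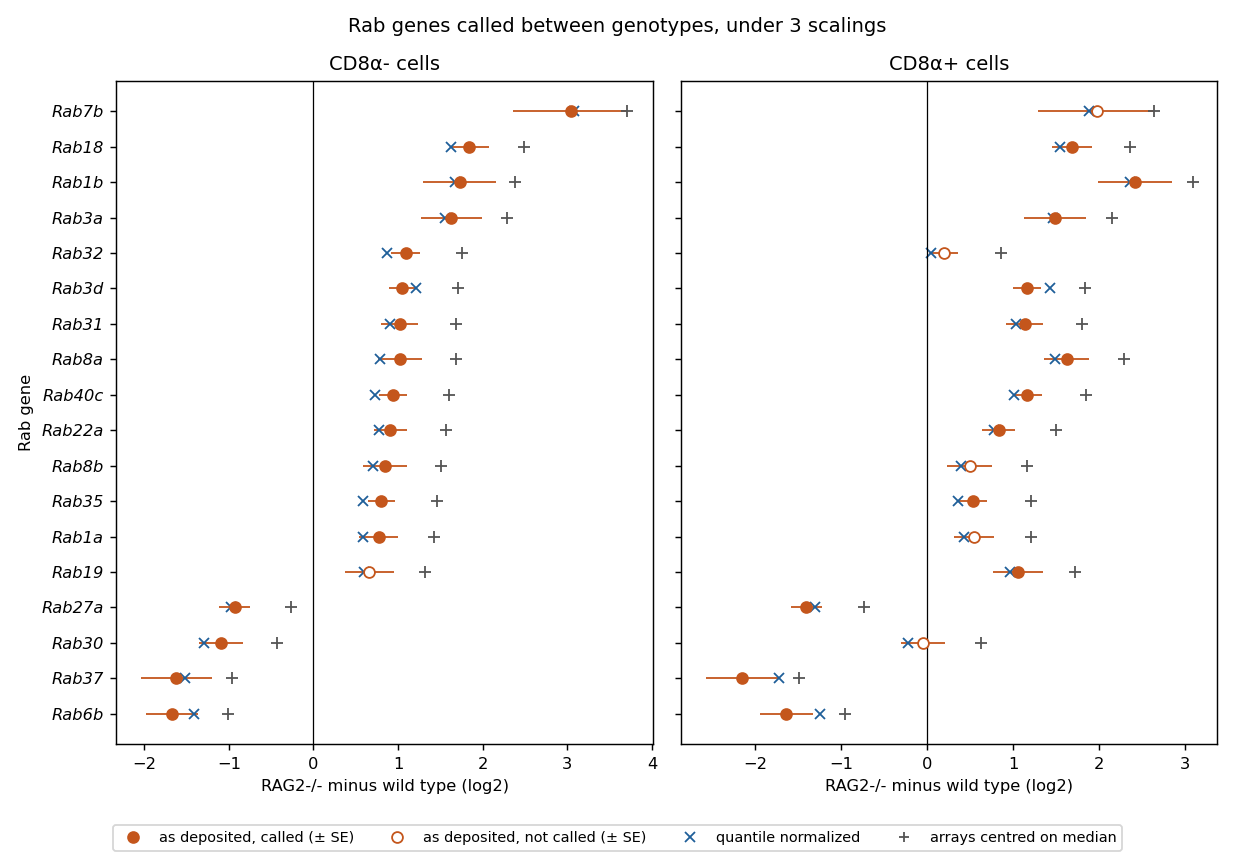
Difference of RAG2-/- minus wild type (log2) in CD8α- (left) and CD8α+ cells (right) for the 18 Rab genes called in either subset (Rab3d and Rab6b passed the filter through 1 genotype alone), as deposited (circles, with 1 standard error, filled where called), after quantile normalization (crosses) and after centring each array on its median (plus signs). Centring on the median moves every gene up, so that Rab27a in CD8α- cells stands at -0.27, while quantile normalization moves them little.

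Rab18, which acts on lipid droplets and the endoplasmic reticulum, was at 8.79 and 8.80 in wild type CD8α- cells, 8.95 and 9.36 in CD8α+ cells, 10.67 and 10.59 in RAG2-/- CD8α- cells and 10.59 and 11.09 in CD8α+ cells. Every RAG2-/- array lay above every wild type array. It was higher by 1.84 (SE 0.23, limma, adjusted p = 0.00177) in CD8α- cells and 1.68 (SE 0.23, adjusted p = 0.00268) in CD8α+ cells. Rab1b, which drives transport from the endoplasmic reticulum to the Golgi, was at 7.11, 6.81, 6.69 and 7.84 on the wild type arrays, and at 8.25 and 9.13 in RAG2-/- CD8α- cells and 9.55 and 9.82 in CD8α+ cells. It was higher by 1.73 (SE 0.43, adjusted p = 0.0182) and 2.42 (SE 0.43, adjusted p = 0.00625). Its paralogue Rab1a was at 12.11 and 12.37 in wild type and 13.06 and 12.94 in RAG2-/- CD8α- cells, and at 12.63 and 12.74 and at 12.95 and 13.50 in CD8α+ cells. The difference of Rab1a passed in CD8α- cells alone (0.77, adjusted p = 0.0327, and 0.54, adjusted p = 0.0997), and a second probe set differed by -0.51 and -0.43.

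Of 6 analysed Rabs of the early endosome and phagosome, Rab22a and Rab31 were higher in RAG2-/- cells of both subsets and 0 were lower. The share higher was 33.3% in each, beside 23.4% and 20.8% of all genes. Rab21 went the other way, without overlap of the genotypes, and did not pass (-0.90 and -0.88, limma, adjusted p = 0.0569 and 0.0646). Its second probe set differed by -0.65 and -0.66. Rab22a, which returns cargo such as MHC class I from early endosomes, was at 7.90, 8.21, 7.95 and 7.97 on the wild type arrays and 9.02, 8.91, 8.66 and 8.92 on the RAG2-/- arrays. The genotypes did not overlap, with differences of 0.91 (SE 0.19, limma, adjusted p = 0.00972) and 0.83 (adjusted p = 0.0151). Rab31, which works between the Golgi and endosomes, was at 7.66, 7.93, 8.06 and 8.35 on the wild type arrays and 8.60, 9.02, 9.31 and 9.35 on the RAG2-/- arrays. It too did not overlap and was higher by 1.02 (adjusted p = 0.0102) and 1.13 (adjusted p = 0.00805).

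The exocytic Rabs Rab8a, Rab8b and Rab35 were higher in RAG2-/- CD8α- cells. Rab8a, which carries Golgi cargo to the plasma membrane, was at 9.58, 9.39, 8.47 and 9.20 on the wild type arrays and 10.42, 10.60, 10.48 and 10.42 on the RAG2-/- arrays. All RAG2-/- arrays were above the wild type ones, by 1.02 (SE 0.26, limma, adjusted p = 0.0189) in CD8α- and 1.62 (adjusted p = 0.00433) in CD8α+ cells. Rab8b was at 12.33, 12.48, 12.82 and 12.80 against 13.46, 13.06, 12.97 and 13.63, a difference of 0.85 (adjusted p = 0.0355) and 0.49 (adjusted p = 0.176). Rab35, whose levels are given with the subsets, was higher by 0.80 (SE 0.16, adjusted p = 0.00929) and 0.53 (adjusted p = 0.0426), the second not called after quantile normalization (0.36, adjusted p = 0.134), in a fit with the replicate number as a block (0.53, adjusted p = 0.0642) or without any 1 of 6 arrays. Rab40c, which recruits a ubiquitin ligase, was at 9.04, 9.22, 8.79 and 8.85 on the wild type arrays and 10.03, 10.12, 10.07 and 9.90 on the RAG2-/- arrays. It was higher by 0.94 (adjusted p = 0.00571) and 1.16 (adjusted p = 0.00322).

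Among Rabs of regulated secretion, Rab3a and Rab3d, which prime vesicles for release, stood higher in RAG2-/- cells, and Rab27a and Rab37 lower. Rab3a was at 6.77, 7.26, 7.36 and 7.30 on the wild type arrays and 8.29, 8.99, 9.25 and 8.36 on the RAG2-/- arrays, higher by 1.63 (limma, adjusted p = 0.0121) and 1.48 (adjusted p = 0.0189). Its second probe set was at 2.15 to 2.23 on all arrays, so the difference of Rab3a rests on 1 probe set. Rab3d lay just below 5 on all wild type arrays (lowest 4.96) and at 6.01, 6.07, 6.06 and 6.18 on the RAG2-/- arrays. It was nearly constant within each genotype whatever the subset. Since it passed the filter through RAG2-/- arrays alone, it had to be higher there, and its level is given as a description, at least 2.06-fold and 2.17-fold higher, with no test. Rab27a was at 7.79, 7.68, 7.80 and 7.80 on the wild type arrays and lower on the RAG2-/- arrays, at 6.76, 6.84, 6.23 and 6.54, with a difference of -0.93 (SE 0.18, adjusted p = 0.00704) in CD8α- and -1.41 (SE 0.18, adjusted p = 0.00213) in CD8α+ cells. Rab37 differed by -1.62 (SE 0.42, adjusted p = 0.0218) and -2.16 (SE 0.42, adjusted p = 0.0087), the latter at least 1.06-fold lower, since its RAG2-/- CD8α+ arrays were below 5. With values below 5 set to 5 that second difference was -0.23 and no longer called (adjusted p = 0.524).

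Rab6b, a Rab6 form best known from neurons, was at 5.44, 5.52, 5.22 and 4.78 on the wild type arrays and 3.37, 4.26, 3.36 and 3.36 on the RAG2-/- arrays. Its RAG2-/- values were all below 5, so it passed the filter through wild type arrays alone and had to be lower in RAG2-/-. In CD8α- cells it was at least 1.4-fold lower, given with no test, and in CD8α+ cells the difference was -0.11 with values below 5 set to 5.

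In some Rabs the genotypes were told apart in 1 subset. Rab7b was higher in RAG2-/- by 3.04 (SE 0.68, limma, adjusted p = 0.0128) in CD8α- cells and by 1.97 (SE 0.68, adjusted p = 0.0593) in CD8α+ cells. The first was 1.90 without the 2 arrays with neutrophil transcripts, which leaves 1 RAG2-/- CD8α- array. It missed the threshold without wild type CD8α- replicate 1 (2.64). A second probe set of Rab7b differed by 1.26 in CD8α- cells and, in the other direction, by -0.86 in CD8α+ cells. Rab32 was higher by 1.09 (SE 0.17, limma, adjusted p = 0.00392) in CD8α- cells, and its difference in CD8α+ cells was 0.19 (adjusted p = 0.435). The mean of 9 markers of CD8α+ dendritic cells was 7.42 and 7.84 on wild type and 8.10 and 9.05 on RAG2-/- CD8α- arrays. On CD8α+ arrays it was 11.46 and 11.85 against 12.32 and 12.37. Its part in these differences was not tested. Rab30 was lower in CD8α- cells, with a difference of -1.09 (SE 0.26, limma, adjusted p = 0.0154), and differed by -0.05 in CD8α+ cells. Its second probe set differed by -0.42 in CD8α- and 0.38 in CD8α+ cells. The mean over its probe sets was not called in CD8α- cells (-0.76, limma, adjusted p = 0.0558). Rab19 was higher in CD8α+ cells, by 1.05 (SE 0.29, adjusted p = 0.0298), and differed by 0.66 (adjusted p = 0.113) in CD8α- cells.

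Whether the subset difference itself changed with the genotype was tested as the interaction, in which a constant log2 offset shared by all arrays of a genotype cancels. A difference in processing that varies with the level of a gene does not cancel. It passed in 0 of 39 Rab genes (limma), beside 0.24% of all genes, and in 0 under limma-trend with robust eBayes. At an unadjusted p under 0.05 there were 3 Rab genes, beside 7.25% of all genes. They were Rab32 (-0.90, SE 0.25, limma unadjusted p = 0.00791, adjusted p = 0.408), Rab39 (-1.01, SE 0.34, unadjusted p = 0.0204, adjusted p = 0.524) and Rab30 (1.04, unadjusted p = 0.0247, adjusted p = 0.556). The subset difference of Rab32 and Rab39 was the smaller in RAG2-/- cells, and that of Rab30 the larger. The median interaction was -0.06 for Rab genes and -0.02 for all genes. With 2 arrays a group, an adjusted p above the threshold does not show that the genotypes are alike.

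The genotype calls also differed in whether they passed without 1 array. A refit has fewer arrays to measure the spread, so a lost call need not rest on the array left out. The CD8α- calls of Rab1a and Rab8b were lost without either wild type CD8α+ array, which is outside that comparison. Their differences stayed at 0.77 and 0.85. Rab18 and Rab40c passed in both subsets whichever array was left out and under all 3 other scalings, as did Rab32 in CD8α- cells and Rab1b, Rab27a and Rab8a in CD8α+ cells. Rab27a in CD8α- cells passed without any 1 array but was -0.27 after centring on the median (limma, adjusted p = 0.24). That scaling also ended the CD8α- calls of Rab30 (-0.43, adjusted p = 0.179) and Rab37 (-0.96, 0.0769). Quantile normalization ended those of Rab1a in CD8α- cells (0.59, 0.0542) and of Rab19 in CD8α+ cells (0.96, 0.0537), and the mean over the probe sets of Rab1a differed by 0.13 (0.691). In CD8α- cells, Rab22a (0.75, adjusted p = 0.0636) and Rab31 (0.88, adjusted p = 0.0694) missed the threshold without wild type CD8α- replicate 1, and Rab35 (0.76, adjusted p = 0.0524) without replicate 2. Rab3a missed it without wild type CD8α- replicate 1 (1.39, adjusted p = 0.0857) or RAG2-/- CD8α- replicate 2 (1.28, adjusted p = 0.0584). Rab1b, Rab8a, Rab30 and Rab37 missed it without either wild type CD8α- array or RAG2-/- CD8α- replicate 2, with differences that ran over the 8 refits from 1.28 to 2.17, 0.93 to 1.12, -1.15 to -1.03 and -2.09 to -1.15. Rab1a passed in 2 and Rab8b in 3 of the 8 refits.

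In CD8α+ cells, Rab31 (0.98, adjusted p = 0.052 by limma) and Rab37 (-1.78, 0.0619) missed the threshold without wild type CD8α+ replicate 1. Rab22a missed it without either wild type CD8α+ array or RAG2-/- CD8α+ replicate 2, with a range of 0.69 to 0.96. Rab3a and Rab19 missed it without either wild type CD8α+ array or RAG2-/- CD8α+ replicate 1, with ranges of 1.03 to 1.92 and 0.78 to 1.32. Without the 2 arrays with neutrophil transcripts, Rab1b (1.28), Rab31 (0.81), Rab37 (-1.15) and Rab8a (0.94) were no longer called in CD8α- cells. Nor were Rab19 (0.78), Rab35 (0.60) and Rab3a (1.03) in CD8α+ cells. Each RAG2-/- group then had 1 array, so a lost call need not mean a smaller difference.

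Of 7 analysed genes of the prenylation and GDI machinery, which handles all Rabs, 0 passed between the subsets in either genotype (limma), and 2 had an unadjusted p under 0.05 in each, where 17.1% and 21.8% of all genes passed. Between the genotypes 3 of the 7 were called in CD8α- cells (42.9%, beside 40.5% of all genes) and 4 in CD8α+ cells (57.1%, beside 36.9%). Rabac1, which binds prenylated Rabs at the Golgi, was at 4.48 to 4.99 on wild type and 7.49 to 8.34 on RAG2-/- arrays, at least 7.52-fold higher in CD8α- and 7.53-fold in CD8α+ cells. It passed the filter through RAG2-/- arrays alone and so had to be higher there. This is a description with no test, and both genotype counts of the 7 genes include it. The geranylgeranyl transferase subunits Rabggta (1.45 and 1.91, limma, adjusted p = 0.00355 and 0.0018) and Rabggtb (0.85 and 0.92, adjusted p = 0.0115 and 0.00972) were higher too, Rabggtb not without wild type CD8α- replicate 1 (0.72, adjusted p = 0.0727). The GDI gene Gdi2 passed as lower in CD8α+ cells (-0.61, adjusted p = 0.046, and -0.56 with 0.0573 in CD8α- cells) and passed in 2 of 8 refits, with an adjusted p of up to 0.171.

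Of 27 analysed Rab exchange factors, 2 were higher and 5 lower in wild type CD8α+ cells, and 2 higher and 4 lower in RAG2-/-. That is 25.9% and 22.2%, beside 17.1% and 21.8% of all genes, the second near the background. Rin2, an exchange factor of Rab5, was at 8.72 and 8.47 in wild type CD8α- cells, 5.57 and 4.51 in CD8α+ cells, 8.06 and 7.81 in RAG2-/- CD8α- cells and 4.15 and 3.38 in CD8α+ cells. It was lower, with a log2 difference of -3.56 in wild type (SE 0.39, limma, adjusted p = 0.0011) and at least 7.66-fold lower in RAG2-/- (adjusted p = 0.00057). Dennd3, which acts on Rab12, was lower, with a log2 difference of -2.71 and -3.43 (adjusted p = 0.000451 and 0.000161). Of the exchange factors of Rab35, Dennd1c was lower, with a log2 difference of -1.13 and -1.29 (adjusted p = 0.00551 and 0.00272) and Dennd1b was higher by 1.15 and 1.02 (adjusted p = 0.00457 and 0.00685). Dennd2d, reported to act on Rab9, was at 5.43 to 5.98 on CD8α- and 8.21 to 8.57 on CD8α+ arrays, higher by 2.72 and 2.62 (adjusted p = 0.00019 and 0.000201). These 5 genes passed in both genotypes whichever array was left out.

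Of 25 analysed Rab GAPs, 2 were higher and 3 lower in wild type CD8α+ cells, and 2 higher and 5 lower in RAG2-/-, or 20% and 28% beside 17.1% and 21.8% of all genes. Tbc1d16 was lower, with a log2 difference of -2.93 (SE 0.27, limma, adjusted p = 0.00056) in wild type, and by -1.18 (adjusted p = 0.0221) in RAG2-/-, where it passed in 4 of 8 refits (adjusted p of up to 0.115). Usp6nl, a GAP of Rab5, was lower, with a log2 difference of -0.98 (adjusted p = 0.0178) and -1.15 (adjusted p = 0.00844), the first not without any 1 of the 4 wild type arrays. Rabgap1l was higher by 1.27 (adjusted p = 0.00471) and 0.82 (adjusted p = 0.0246), the second in 5 of 8 refits. Tbc1d10c was lower in both genotypes (-1.03, adjusted p = 0.00918, in 6 of 8 refits in wild type, and in 5 of 8 in RAG2-/-). In wild type Tbc1d12 was higher (1.08, adjusted p = 0.00764, but 0.96 and 0.0633 without CD8α- replicate 1). In RAG2-/-, Evi5 was lower (-1.53, adjusted p = 0.0017, in all 8 refits) and Tbc1d24 higher (1.04, adjusted p = 0.0255, in 3 of 8 refits).

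Of 35 analysed Rab effectors, 0 were higher and 1 was lower in wild type CD8α+ cells, and 1 was higher and 1 lower in RAG2-/-, or 2.86% and 5.71% beside 17.1% and 21.8% of all genes. Rufy3 was lower in wild type (-0.99, limma, adjusted p = 0.0196, in 5 of 8 refits). In RAG2-/-, the Rab11 effector Rab11fip4 was higher (1.22, adjusted p = 0.0372, in 4 of 8 refits) and the vesicle motor gene Myo5a lower (-1.16, adjusted p = 0.043, in 1 of 8 refits). The median difference of the effectors was -0.11 and -0.04, beside 0.01 and 0.02 over all genes.

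Between the genotypes, 4 exchange factors were higher in RAG2-/- and 1 lower in CD8α- cells, and 5 higher and 3 lower in CD8α+ cells, or 18.5% and 29.6% beside 40.5% and 36.9% of all genes. Madd, an exchange factor of Rab3 and Rab27, was higher by 1.11 and 1.13 (limma, adjusted p = 0.0031 and 0.0033), and Rab3ip, which acts on Rab8, was lower, with a log2 difference of -1.11 and -1.07 (adjusted p = 0.00376 and 0.00469). Both passed in all 8 refits in each subset. Ccz1, of the Rab7 exchange factor, was higher by 0.90 in CD8α- cells (adjusted p = 0.00865, and 0.0514 without wild type CD8α- replicate 2). Sbf2 was higher by 1.94 in CD8α+ cells (adjusted p = 0.00784, and 0.0503 without wild type CD8α+ replicate 1). Dennd4b in CD8α- cells (0.75, adjusted p = 0.0302) and Rabgef1 (1.12, 0.0174) and Dennd3 (-1.02, 0.0158) in CD8α+ cells passed in 4, 6 and 5 of 8 refits. Rin2, below 5 on both RAG2-/- CD8α+ arrays, was at least 1.03-fold lower there (limma, adjusted p = 0.0413, in 2 of 8 refits).

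Among the GAPs, 4 were higher in RAG2-/- and 4 lower in CD8α- cells, and 3 and 3 in CD8α+ cells, or 32% and 24% beside 40.5% and 36.9% of all genes. Tbc1d5, a GAP of Rab7, was higher by 1.66 and 1.67 (limma, adjusted p = 0.00199 and 0.00235), in all 8 refits of each. Tbc1d24 was lower, with a log2 difference of -1.68 and -1.15 (adjusted p = 0.00306 and 0.0124), in 8 and 6 refits. In CD8α- cells Evi5 (1.12, adjusted p = 0.0046), Tbc1d10b (0.87, 0.0396), Tbc1d16 (-1.29, 0.0102) and Tbc1d8b (-0.94, 0.0113) passed in 8, 1, 6 and 7 of 8 refits. In CD8α+ cells Tbc1d22a (0.88, adjusted p = 0.0206), Tbc1d10c (0.58, 0.0452), Tbc1d12 (-0.72, 0.0234) and Tbc1d9 (-0.66, 0.0233) passed in 6, 2, 5 and 5.

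Of the effectors, 4 were higher in RAG2-/- and 2 lower in CD8α- cells, and 8 higher and 6 lower in CD8α+ cells, or 17.1% and 40% beside 40.5% and 36.9% of all genes. In CD8α- cells Appl1 (0.92, limma, adjusted p = 0.0202), Rabep2 (0.83, 0.0368), Fyco1 (0.82, 0.033), Mical1 (-1.26, 0.0152) and Rufy3 (-1.23, 0.00525) passed in 5, 1, 5, 4 and 8 of 8 refits. In CD8α+ cells Osbpl1a was at least 1.85-fold higher (adjusted p = 0.0108), and Unc13d (1.57, 0.0115), Gripap1 (1.25, 0.023), Mical1 (lower, 0.0366), Inpp5b (-0.96, 0.00868) and Pik3c3 (-0.89, 0.027) passed as well, in 6, 5, 3, 8 and 5 of 8 refits, and Osbpl1a in 5. Unc13d is the Rab27a effector that primes secretory granules.

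On the probe set that stood for each gene, the other analysed Rab genes made no call in any comparison. Of the 39, 15 were in that set (Rab11b, Rab12, Rab14, Rab21, Rab24, Rab28, Rab29, Rab2b, Rab38, Rab4b, Rab5a, Rab5b, Rab6a, Rab7 and Rab9). The Rabs whose probe sets had the highest mean over the 8 arrays were Rab14, Rab8b, Rab43, Rab1a and Rab7, but levels of different probe sets cannot be ranked against each other. Of the 39 genes, 36 were at 5 or more on all 8 arrays, and Rab37, Rab3d and Rab6b were not.

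The 20 Rab genes that did not pass the filter had highest values between 2.23 and 5.25, and 18 of them stayed below 5 on every array. Rab13, a Rab of tight junctions, came nearest, at 2.77, 2.70, 2.78 and 4.84 on the wild type arrays and 2.23, 2.23, 5.25 and 4.68 on the RAG2-/- arrays. Rab5c, an early endosome Rab, reached 5.03 on 1 array, in RAG2-/- CD8α+ replicate 1. The rest included the epithelial Rabs Rab17 and Rab25, the synaptic Rab3b and Rab3c, Rab27b of secretory granules, and Rab20, Rab34 and Rab4a. A value below 5 does not show that a gene is not transcribed.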

How the data were processed

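The deposited values were log2 expression values per probe set, normalized by the authors. Per the submitters' processing notes, GCRMA and affy were used for wild type arrays and GCRMA for RAG2-/- arrays. Their versions, and whether all 8 arrays were normalized in 1 run, are not stated in the sources at hand. Of 45101 probe sets, 34945 carried 1 gene name in the platform annotation, 932 several and 9160 none, and 64 were controls. Probe sets at log2 5 or more on at least 2 of 8 arrays were kept, and the probe set of highest mean stood for its gene, which gave 8763 genes. All 4 groups entered 1 limma fit (version 3.58.1, R 4.3.3, eBayes, 4 residual degrees of freedom), from which 5 comparisons were taken. Tests were 2-sided, with Benjamini-Hochberg adjustment across the 8763 genes, and calls needed an adjusted p under 0.05. A group below 5 on all its arrays was taken at 5 for a fold given as at least. Per-array values and statistics are given for Rab genes called anywhere, the tested cross-presentation Rabs and the 5 brightest, and the 3 largest rises and falls of each regulator list. A refit leaves out 1 of the 8 arrays, and the lone array of a group is then assumed to vary like the other groups. Without the 2 arrays with neutrophil transcripts each RAG2-/- group has 1 array, and the spread comes from the wild type arrays alone. The Rab genes and all lists were chosen with earlier results of these data known. Arrays that share a replicate number did not deviate together (correlations of their deviations from group means lay between -0.146 and 0.112). The fit was also run on simulated data, the outcome of which is not given here. The number of arrays limits the precision. The plots use matplotlib 3.10.9 under Python 3.11.15.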

Additional observations from a re-analysis of the deposited data

How the results depend on the processing

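The Rab calls between subsets kept their direction under every setting run. Of the 10 wild type calls, all 10 passed after quantile normalization, centring on the median over all probe sets or over the genes tested (the last added after the data were seen), limma-trend, a fit of the compared groups alone and the replicate block, and 9 with the mean of probe sets. With no filter 6 Rab genes were called in wild type, with a median of 0.02 over all Rab genes on the array. Leaving out 1 array gave 4 to 10 Rab genes and 755 to 1546 genes in all. In RAG2-/-, a fit of the 2 groups alone called 2 Rab genes and 818 genes, and no filter called 1226 genes. Leaving out the 2 arrays with neutrophil transcripts (chosen after seeing the data) left 1 RAG2-/- array in each subset and gave a Rab median of 0.26. Leaving out 1 array gave 5 to 8 Rab genes and 1168 to 1795 genes.

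Genotype results moved with scaling and filter. Centring on the median called 26 Rab genes in each subset, with Rab medians of 0.86 and 0.77 and 5066 genes in CD8α+ cells. Under it Rab11a (0.57, limma, adjusted p = 0.0336) and Rab6a (0.55, 0.0332) in CD8α- cells and Rab10 (0.51, 0.0439) and Rab11a (0.58, 0.0315) in CD8α+ cells turned from slightly lower to higher. No filter called 31 and 26 Rab genes, with a median of -0.06 in CD8α- cells, and 10923 and 10678 genes. Without a filter, genes near the lowest values enter the fit. Rab34 was at 2.92 to 2.98 and Rab44 at 2.02 to 2.06 on wild type arrays, and both at 2.23 on all RAG2-/- arrays. Each probe set on its own called 26 and 23 Rab probe sets and 5497 and 5221 probe sets in all. Leaving out 1 array gave 7 to 19 Rab genes and 1708 to 3503 genes in CD8α- cells, and 6 to 14 and 1677 to 3468 in CD8α+ cells. The interaction called 21 genes, 8 with each probe set on its own, 11 with limma-trend, 6 without the 2 arrays with neutrophil transcripts and 1 to 32 without 1 array, and 0 Rab genes in the settings named here. The cause of these moves was not tested.

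Pairing by replicate number was not borne out by the values. With that number as a replicate block, the interaction called 3 genes and the Rab counts were 10, 9, 17 and 13.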
